A study of Mus musculus with 24 samples.

Results

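The 10 genes described here belong to the NRF2 antioxidant and glutathione systems: *Nfe2l2*, *Keap1*, *Gclm*, *Gclc*, *Nqo1*, *Txnrd1*, *Srxn1*, *Slc7a11*, *Prdx1* and *Gsr*. They were selected on the response to dopamine (DA) in wild-type (WT) cells of these same libraries, so that response is a description: genes are counted against a threshold beside all tested genes, with no p-value of their own, and nothing is concluded from the counts. All 10 were found among the 18063 genes listed for the M1 libraries and the 17786 listed for the M2 libraries. All 10 also passed the filter on low values, as did 10040 genes in M1 and 10735 in M2.
The data are RNA-seq of bone marrow-derived macrophages (BMDMs), which are macrophages grown in culture from bone marrow cells, from C57BL/6 mice of 10 weeks. The labels give bone as the tissue, although their growth protocol names the colon. The mice were WT or DRD5 KO, which lack the dopamine receptor DRD5 in the whole body after CRISPR-Cas9 editing. Every library came from cells stimulated for 12 h, either toward M1 with LPS at 100 ng/ml plus IFN-γ at 50 ng/ml, or toward M2 with IL-4 and IL-13 at 10 ng/ml each. Cells of each genotype and stimulus were left without DA (untreated) or given DA, at 20 µM by the paper. This makes 8 groups of 3 libraries, 24 in all. The labels do not say whether a replicate is a mouse or a culture, so the p-values measure only the spread between these libraries.
The deposited values are FPKM, which are fragments scaled by transcript length and by the mapped fragments of the library. They summed to between 476187 and 494459 in an M1 library and between 482310 and 503799 in an M2 library. The number of reads behind a value is not in the files, so the depth is unknown. In such bulk samples, fewer cells of a type and less RNA per cell cannot be told apart.

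The labelled cell type was checked on marker lists. All 10 macrophage markers reached an FPKM of 1 in both stimuli, and their summed FPKM was 7580 to 8620 in M1 libraries, 9610 to 9630 in DA-treated M2 WT libraries and 12400 to 12800 in the other 9 M2 libraries, with *Lyz2* the most abundant. The 10 genes of the M1 stimulus summed to between 6950 and 7420 in M1 and between 65.4 and 81.1 in M2 libraries, led by *Nos2* and *Irf1*. The 10 genes of the M2 stimulus summed to between 511 and 1710 in M2 libraries, led by *Mrc1*. The genes of the M1 stimulus were thus far higher in the libraries labelled M1 than in those labelled M2, side by side and with no test.
Most markers of other cells were low in M1, but not those of neutrophils, whose list of 10 genes summed to between 90.8 and 151 there with 7 of them reaching an FPKM of 1. The B cell list, led by *Cd79b*, summed to 0.94 at most in any of the 24 libraries, and the T or NK cell list, led by *Lck*, to 2.32. The dendritic cell list reached 5.26 in M1 (*Xcr1* highest) and 0.88 in M2 (*Zbtb46* highest). Mast cell or basophil genes reached 0.6 in M1 and 4.0 in M2, with *Kit* highest, and erythroid genes reached 3.72, led by *Hba-a2* in M1 and *Hba-a1* in M2. In M1 the fibroblast or stromal list summed to between 4.61 and 5.56, led by *Col1a1*. The same 9 fibroblast or stromal genes all reached an FPKM of 1 in M2, and neutrophil genes varied between groups, so sums of both lists are given beside the results.
*Drd5* itself was not listed in the M1 files. In M2 it was at 0.06 FPKM in an untreated WT library, at 0.03 in a DA-treated WT library and at 0 in the other 10. The genotype could not be checked on values this low.

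NRF2 is a transcription factor that a cell makes and destroys all the time. KEAP1 holds it and passes it to a ubiquitin ligase, until oxidants or electrophiles modify cysteines of KEAP1, after which NRF2 accumulates, pairs with small MAF proteins and binds antioxidant response elements near its target genes. The targets make glutathione from glutamate, cysteine and glycine, import cystine, reduce thioredoxin and peroxiredoxins, and detoxify quinones. In macrophages the pathway is known for limiting damage from the oxidants these cells release and for restraining inflammatory cytokine genes.

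Promoter sequences from RefSeq (GRCm38.p6, 250 bases before to 50 after a start) were on file for 8 of the 10 genes, in 10 windows. There was no entry for *Gclc* or *Gsr*. Each window was searched on both strands for the core of the antioxidant response element, TGACNNNGC, which was in 12.4% of the 32851 promoter windows of the same length. The core was present in windows of 5 genes, *Nfe2l2*, *Gclm*, *Txnrd1*, *Srxn1* and *Prdx1*, and these letters were not in the windows of *Keap1*, *Nqo1* and *Slc7a11*. The paper concerns the CREB pathway, so the cAMP response element, which CREB binds, was also searched: its short form TGACG (20.8% of all windows) was found for *Gclm*, *Txnrd1* and *Srxn1*, and its full site TGACGTCA (1.79%) for none of the 8.
The upstream stretches of 3 genes are printed with the core in capitals: *Gclm*, which had the largest change with DA in both stimuli, *Prdx1*, which was the most abundant of the 10, and *Nfe2l2*, which encodes the factor itself. In *Gclm* (chr3:122245307-122245556, plus strand) the core lies on the opposite strand, from −134 to −126 before the start, and overlaps that short form, read as CGTCA from −130 to −126. In *Prdx1* (chr4:116685349-116685543, plus strand) it lies on the opposite strand from −133 to −125, counted from a RefSeq start inside the annotated gene, whereas the printed stretch ends just before the gene's first base. In *Nfe2l2* (chr2:75704664-75704913, minus strand) it lies on the same strand from −240 to −232, also counted from the RefSeq start. A match describes letters and is not a measured binding site.
Gclm: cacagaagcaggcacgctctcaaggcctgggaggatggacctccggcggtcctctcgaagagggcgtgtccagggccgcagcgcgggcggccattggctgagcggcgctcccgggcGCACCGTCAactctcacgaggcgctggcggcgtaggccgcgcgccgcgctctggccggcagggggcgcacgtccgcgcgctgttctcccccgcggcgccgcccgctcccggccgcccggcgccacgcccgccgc
Prdx1: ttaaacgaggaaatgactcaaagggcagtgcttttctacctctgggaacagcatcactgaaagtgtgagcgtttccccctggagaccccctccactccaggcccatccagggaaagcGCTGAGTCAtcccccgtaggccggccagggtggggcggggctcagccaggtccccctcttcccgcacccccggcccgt
Nfe2l2: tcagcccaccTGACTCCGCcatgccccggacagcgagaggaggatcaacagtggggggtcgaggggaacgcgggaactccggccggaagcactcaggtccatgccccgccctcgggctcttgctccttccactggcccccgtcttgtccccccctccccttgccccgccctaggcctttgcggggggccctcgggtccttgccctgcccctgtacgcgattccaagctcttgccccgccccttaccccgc

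Changes are differences in log2(FPKM + 1), fitted with limma over the 12 libraries of a stimulus, with their standard error (SE). The threshold takes its 2 values from the cutoff the paper used to select heat map genes. It is a change of at least 1.2-fold with an adjusted p (Benjamini-Hochberg over all genes tested) below 0.001. The fold here is of FPKM + 1, which makes the changes of genes at low FPKM smaller than those of FPKM itself. With DA in WT cells, the contrast on which the 10 genes were selected, 6 were past the threshold in M1, all higher, beside 14.3% of all tested genes (4.73% higher and 9.60% lower). In M2, 6 were past it, 4 higher and 2 lower, beside 46.3% of all tested genes (25.9% higher and 20.4% lower). For every one of the 10 genes, the 3 DA-treated and the 3 untreated WT libraries did not overlap in either stimulus, which also held for 56.5% of all tested genes in M1 and 76% in M2. The members' median change was 0.38 in M1 and 0.16 in M2, beside −0.07 and 0.03 over all tested genes. Of all genes past the threshold in M1, the share that was higher depended on scaling: 33.0% as deposited, 55.6% with median-of-ratios scaling and 52.2% with quantile normalization. The counts of the 10 were 7 in M1 with median-of-ratios scaling, where *Gsr* reached 0.27, and 7 in M2 with quantile normalization, where *Keap1* reached −0.26. In M1 WT cells the neutrophil list summed to between 117 and 129 untreated and between 130 and 151 with DA, while *Csf3r*, its most abundant gene, had means of 69.4 and 64.5 and the other 9 genes summed to between 45.6 and 57.8 and between 64.6 and 85.1. The macrophage list was also higher there, at 7840 to 7970 untreated and 8580 to 8620 with DA. The T or NK cell list (1.92 to 2.32 and 0.81 to 1.33) and the dendritic cell list (4.14 to 4.86 and 2.99 to 3.57) were lower. In the T or NK cell list this was *Lck* (means of 2.02 and 0.93), as the other genes summed to 0.07 to 0.16 and 0.12 to 0.17. In the dendritic cell list *Xcr1* (1.67 and 0.93) and the sum of the others (2.63 to 2.94 and 2.12 to 2.54) were both lower. Other cell markers moved in the M2 contrast: the neutrophil list, of which *Csf3r* was the only gene to reach an FPKM of 1 in 3 libraries and the most abundant, summed to between 64.7 and 65.6 in untreated and between 22.6 and 24.1 in DA-treated WT libraries. Without *Csf3r* the neutrophil genes summed to 0.85 to 1.2 in untreated and 0.8 to 1.51 in DA-treated M2 WT libraries. The fibroblast or stromal list summed there to between 135 and 138 untreated and between 113 and 114 with DA, with *Dcn* the most abundant at a mean of 75.1 and 43.3 FPKM, while the sum of the other 8 genes went the other way, from between 61.0 and 62.1 to between 67.8 and 72.1. The macrophage list was lower with DA as well, at 12400 to 12500 untreated and 9610 to 9630 with DA (*Lyz2* 6800 and 4750). The mast cell or basophil list was lower with DA in M2 WT cells too, at 3.07 to 3.22 untreated and 2.35 to 2.51 with DA. This was *Kit* (2.72 and 1.93), as the other genes of that list summed to 0.3 to 0.53 untreated and 0.45 to 0.55 with DA. The part of these lists in the results was not tested.

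**Figure D1:**
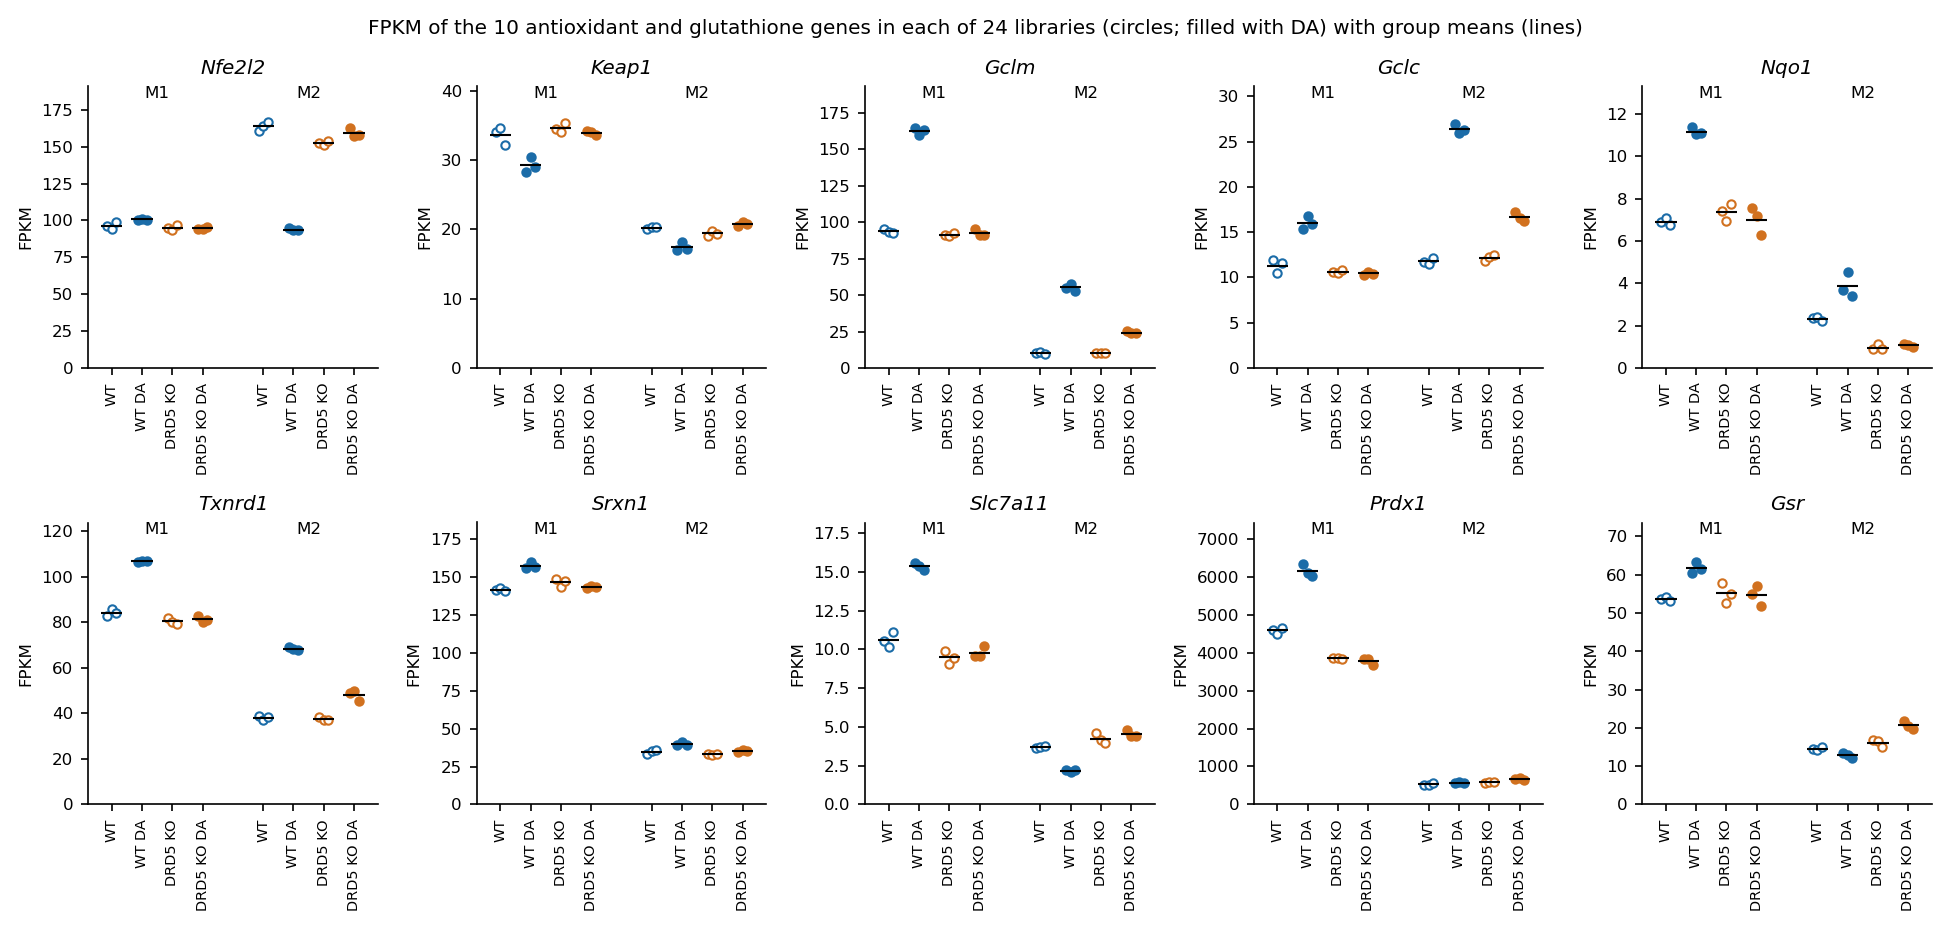
FPKM of each of the 10 genes in each of the 24 libraries, with open circles for untreated and filled circles for DA-treated cells, blue for WT and orange for DRD5 KO, and a line at each group mean. For *Gclm*, the 3 DA-treated WT libraries stand apart from the other 9 in M1. In M2 the DA-treated DRD5 KO libraries lie between the untreated and the DA-treated WT libraries for *Gclm*, which does not hold for all genes.

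*Nfe2l2* (gene 18024, chr2:75675513-75704641, minus strand) encodes NRF2. In M1 its FPKM was 96.2, 94.2 and 98.8 in untreated WT libraries, 100.5, 101.0 and 100.6 in DA-treated WT, 95.05, 93.3 and 97.0 in untreated DRD5 KO, and 94.0, 94.1 and 95.8 in DA-treated DRD5 KO libraries. The DA-treated WT libraries were the highest of the 12, by a small margin: the change was 0.06 (SE 0.0259), and it ran from 0.05 to 0.14 over the 20 alternatives. In M2 its FPKM was 160.8, 164.0 and 167.0 in untreated WT and 94.8, 93.3 and 93.3 in DA-treated WT libraries, against 152.5, 151.2 and 154.2 in untreated and 162.5, 157.2 and 158.2 in DA-treated DRD5 KO libraries. The M2 WT cells had less of the transcript with DA: the mean dropped by 42.8%, and the log2 value fell by 0.80 (SE 0.0225), whereas each DA-treated DRD5 KO library lay above each untreated one. The mean in DRD5 KO cells differed by 4.38%, a change of 0.06 (SE 0.0225, limma adjusted p = 0.0519), which was not past the threshold. Over the 20 alternatives it ran from 0.03 with median-of-ratios scaling to 0.14 with quantile normalization (adjusted p from 0.00112 to 0.251), never past the threshold.
*Keap1* (gene 50868, chr9:21229730-21239361, minus strand) encodes the inhibitor of NRF2, and the annotation places an antisense gene, *Gm16754*, across its end. FPKM in M1 was 34.1, 34.6 and 32.1 in untreated and 28.3, 30.4 and 29.1 in DA-treated WT libraries, and the 6 DRD5 KO libraries lay between 33.6 and 35.4. In M2 it was 20.1, 20.3 and 20.4 in untreated and 17.0, 18.2 and 17.1 in DA-treated WT libraries, against 19.1, 19.8 and 19.4 in untreated and 20.6, 21.1 and 20.7 in DA-treated DRD5 KO libraries. In both stimuli the DA-treated WT libraries were the lowest of the 12. Its changes in WT, −0.19 in M1 (SE 0.0357) and −0.21 in M2 (SE 0.0326), were under 1.2-fold.

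*Gclm* (gene 14630, chr3:122245557-122270732, plus strand) encodes the modifier subunit of glutamate-cysteine ligase, the enzyme that joins glutamate to cysteine. In M1 its FPKM was 95.2, 93.2 and 92.8 in untreated WT, 165.1, 160.03 and 163.4 in DA-treated WT, 91.0, 90.7 and 92.7 in untreated DRD5 KO and 95.3, 91.2 and 91.2 in DA-treated DRD5 KO libraries. The 3 DA-treated WT libraries stood alone, at 1.74 times the untreated mean, and the other 9 lay within a narrow band. M2 libraries had 10.2, 10.7 and 9.72 in untreated WT and 54.9, 57.8 and 53.0 in DA-treated WT libraries, 5.41 times the untreated mean. The M2 DRD5 KO libraries had 10.5, 10.2 and 10.3 without and 25.3, 23.9 and 23.7 with DA, 2.36 times the untreated mean. The change of *Gclm* in WT was 0.79 in M1 (SE 0.0263) and 2.33 in M2 (SE 0.0412). In M2 DRD5 KO cells it rose by 1.16 (SE 0.0412, limma adjusted p = 7.92e-10), with each DA-treated library above each untreated one.
*Gclc* (gene 14629, chr9:77754535-77794485, plus strand) encodes the catalytic subunit of the same ligase. After the M1 stimulus its FPKM was 11.9, 10.5 and 11.6 in untreated and 15.3, 16.8 and 15.9 in DA-treated WT libraries, and between 10.3 and 10.8 in the 6 DRD5 KO libraries. In M2 it was 11.7, 11.5 and 12.1 in untreated and 27.0, 25.9 and 26.3 in DA-treated WT libraries, against 11.8, 12.2 and 12.5 in untreated and 17.2, 16.5 and 16.3 in DA-treated DRD5 KO libraries. It followed the pattern of *Gclm* at lower amplitude: DA-treated WT highest, DA-treated DRD5 KO above untreated in M2 and level with untreated in M1. The change in WT was 0.47 in M1 (SE 0.0473) and 1.10 in M2 (SE 0.0354), and in M2 DRD5 KO cells *Gclc* rose by 0.42 (SE 0.0354, limma adjusted p = 2.67e-06).
*Slc7a11* (gene 26570, chr3:49892526-50443614, minus strand) encodes the transporter that brings in cystine in exchange for glutamate. In M1 its FPKM was 10.5, 10.2 and 11.1 in untreated and 15.6, 15.4 and 15.1 in DA-treated WT libraries, and 9.92, 9.09 and 9.48 in untreated and 9.55, 9.56 and 10.2 in DA-treated DRD5 KO libraries. The M2 values were 3.67, 3.70 and 3.74 in untreated and 2.19, 2.06 and 2.24 in DA-treated WT libraries. The DA-treated WT libraries were thus the highest of the 12 in M1 and the lowest of the 12 in M2, where the DRD5 KO libraries lay between 3.95 and 4.79. The change in WT was 0.49 in M1 (SE 0.0453) and −0.57 in M2 (SE 0.0555). In M2 DRD5 KO cells it was 0.08 (SE 0.0555, limma adjusted p = 0.275), and the DA-treated and untreated libraries overlapped.
*Gsr* (gene 14782, chr8:33652523-33698163, plus strand) encodes glutathione reductase, which returns oxidised glutathione to its reduced form. Its M1 FPKM was 53.8, 54.2 and 53.2 in untreated and 60.5, 63.2 and 61.4 in DA-treated WT libraries, and between 51.8 and 57.8 in the 6 DRD5 KO libraries. In M2 it was 14.5, 14.1 and 14.9 in untreated and 13.4, 12.9 and 12.2 in DA-treated WT libraries, against 16.9, 16.6 and 14.97 in untreated and 21.8, 20.5 and 19.6 in DA-treated DRD5 KO libraries. In M2 the genotypes lay at opposite ends with DA: DA-treated WT lowest, DA-treated DRD5 KO highest. Its change in WT was 0.20 in M1 (SE 0.0388) and −0.17 in M2 (SE 0.0506), both under 1.2-fold, and in M2 DRD5 KO cells it rose by 0.34 (SE 0.0506, limma adjusted p = 0.000272). That call depended on single libraries: the adjusted p was 0.00148 without untreated M2 DRD5 KO replicate 3 (change 0.28), 0.00192 without DA-treated replicate 1 (change 0.30) and 0.00125 without DA-treated replicate 2 (change 0.34), and it ranged from 0.000252 to 0.00192 over all 20 alternatives.

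*Txnrd1* (gene 50493, chr10:82833951-82897712, plus strand) encodes cytosolic thioredoxin reductase, which passes electrons from NADPH to thioredoxin, and *Eid3* lies within it on the same strand. In M1 its FPKM was 82.8, 85.8 and 84.0 in untreated WT, 106.8, 107.1 and 107.1 in DA-treated WT and between 79.4 and 83.0 in the 6 DRD5 KO libraries. Its M2 FPKM was 38.7, 37.0 and 38.5 in untreated WT, 69.2, 68.4 and 67.9 in DA-treated WT, 38.6, 37.3 and 37.2 in untreated DRD5 KO and 49.1, 49.7 and 45.5 in DA-treated DRD5 KO libraries. As with the ligase subunits, DA-treated DRD5 KO libraries lay between untreated and DA-treated WT in M2. The change in WT was 0.34 in M1 (SE 0.0256) and 0.83 in M2 (SE 0.0334), and in M2 DRD5 KO cells *Txnrd1* rose by 0.34 (SE 0.0334, limma adjusted p = 1.06e-05).
*Prdx1* (gene 18477, chr4:116685544-116700822, plus strand) encodes a peroxiredoxin that removes hydrogen peroxide with electrons from thioredoxin. M1 values were 4601, 4495 and 4653 in untreated WT, 6340, 6107 and 6024 in DA-treated WT, 3848, 3852 and 3836 in untreated DRD5 KO and 3835, 3827 and 3674 in DA-treated DRD5 KO libraries. The transcript alone took between 1.24% and 1.31% of a library's FPKM sum in DA-treated M1 WT cells and between 0.771% and 0.795% in M1 DRD5 KO cells. In M2 it was 523.8, 504.4 and 559.1 in untreated WT, 569.8, 585.6 and 575.8 in DA-treated WT, 572.7, 594.4 and 586.3 in untreated DRD5 KO and 678.9, 704.2 and 648.2 in DA-treated DRD5 KO libraries. Here the DA-treated DRD5 KO libraries were the highest of the 12. The change in WT was 0.43 in M1 (SE 0.0277) and 0.13 in M2 (SE 0.0361), and the change in M2 DRD5 KO cells was 0.21 (SE 0.0361, limma adjusted p = 0.000694), short of 1.2-fold as deposited and past it with quantile normalization (0.32).
*Srxn1* (gene 76650, chr2:152105516-152111376, plus strand) encodes sulfiredoxin, which repairs over-oxidised peroxiredoxins. Its FPKM in M1 was 141.4, 142.7 and 140.9 in untreated and 156.1, 159.8 and 156.9 in DA-treated WT libraries, and between 142.8 and 148.7 in the 6 DRD5 KO libraries. For M2 the values were 33.6, 35.2 and 35.8 in untreated and 39.3, 41.0 and 38.9 in DA-treated WT libraries, against 33.5, 32.4 and 33.1 in untreated and 34.8, 36.1 and 35.2 in DA-treated DRD5 KO libraries. The DA-treated WT libraries were the highest in both stimuli, with changes under 1.2-fold: 0.15 in M1 (SE 0.0232) and 0.18 in M2 (SE 0.0316).

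*Nqo1* (gene 18104, chr8:107388225-107403206, minus strand) encodes a reductase that converts quinones to hydroquinones, and was the least abundant of the 10 in M1. In M1 its FPKM was 6.90, 7.10 and 6.77 in untreated WT, 11.4, 11.0 and 11.1 in DA-treated WT, 7.40, 6.93 and 7.76 in untreated DRD5 KO and 7.56, 7.17 and 6.29 in DA-treated DRD5 KO libraries. M2 libraries had it at 2.34, 2.39 and 2.21 in untreated WT, 3.67, 4.53 and 3.40 in DA-treated WT, 0.90, 1.11 and 0.88 in untreated DRD5 KO and 1.13, 1.08 and 1 in DA-treated DRD5 KO libraries. Every M2 DRD5 KO library was thus below every M2 WT library, with or without DA. The change in WT was 0.62 in M1 (SE 0.0575) and 0.55 in M2 (SE 0.0805), and in M2 DRD5 KO cells it was 0.08 (SE 0.0805, limma adjusted p = 0.493).

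Whether the response survives without the receptor is the question of the DRD5 KO libraries. The genes were chosen on the WT response, but with earlier results of these data known, so the p-values here are not free of selection. In M1 DRD5 KO cells, limma placed 0 of the 10 genes past the threshold with DA, as it did 0% of the 10040 tested genes. At an unadjusted p under 0.05 there were 0 of the 10 and 569 of all tested genes, and at an adjusted p under 0.05 there were 0 of either. The members' changes ranged from −0.07 (*Nqo1*) to 0.04 (*Slc7a11*), with adjusted p between 0.897 and 0.982, and DA-treated and untreated libraries were apart for 8.73% of all tested genes and 1 of the 10, *Prdx1*, whose mean dropped by 1.74%. For *Gclm* the 95% interval of the change was −0.04 to 0.07, and the widest interval was that of *Nqo1*, −0.19 to 0.06.
In M2 DRD5 KO cells the answer differed by gene. There, 4 of the 10 were past the threshold with DA, all higher (*Gclm*, *Gclc*, *Txnrd1* and *Gsr*), beside 4.02% of all tested genes, 3.37% higher and 0.652% lower. All 10 changes were above 0, from 0.06 (*Nfe2l2*) to 1.16 (*Gclm*), with a median of 0.15 beside 0.01 over all tested genes, and DA-treated and untreated libraries did not overlap for 8 of the 10, beside 45.3% of all tested genes. The exceptions were *Nqo1* and *Slc7a11*. The number past the threshold was 3 with no filter and with the 2 compared groups alone in the fit, where *Gsr* fell short, and 5 with quantile normalization, which added *Prdx1*. Of all genes past the threshold in this contrast, 83.8% were higher as deposited and 69.8% with median-of-ratios scaling. The fibroblast or stromal list moved with it, from between 85.9 and 87.6 without DA to between 93.2 and 94.3 with DA (*Dcn* 42.5 and 49.4, the other 8 genes between 43.4 and 44.5 and between 43.6 and 45.0), as did the neutrophil list, from between 58.8 and 61.6 to between 65.6 and 70.6 (*Csf3r* most abundant in both). The mast cell or basophil list went the other way, from between 3.69 and 4.0 without DA to between 2.88 and 3.15 with DA (*Kit* 3.47 and 2.77). The 9 macrophage markers other than *Lyz2* were also lower, at 5800 to 5830 without and 5420 to 5540 with DA. *Lyz2* itself was higher, with means of 6860 and 7170. The part of these lists in these results was not tested.

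**Figure D2:**
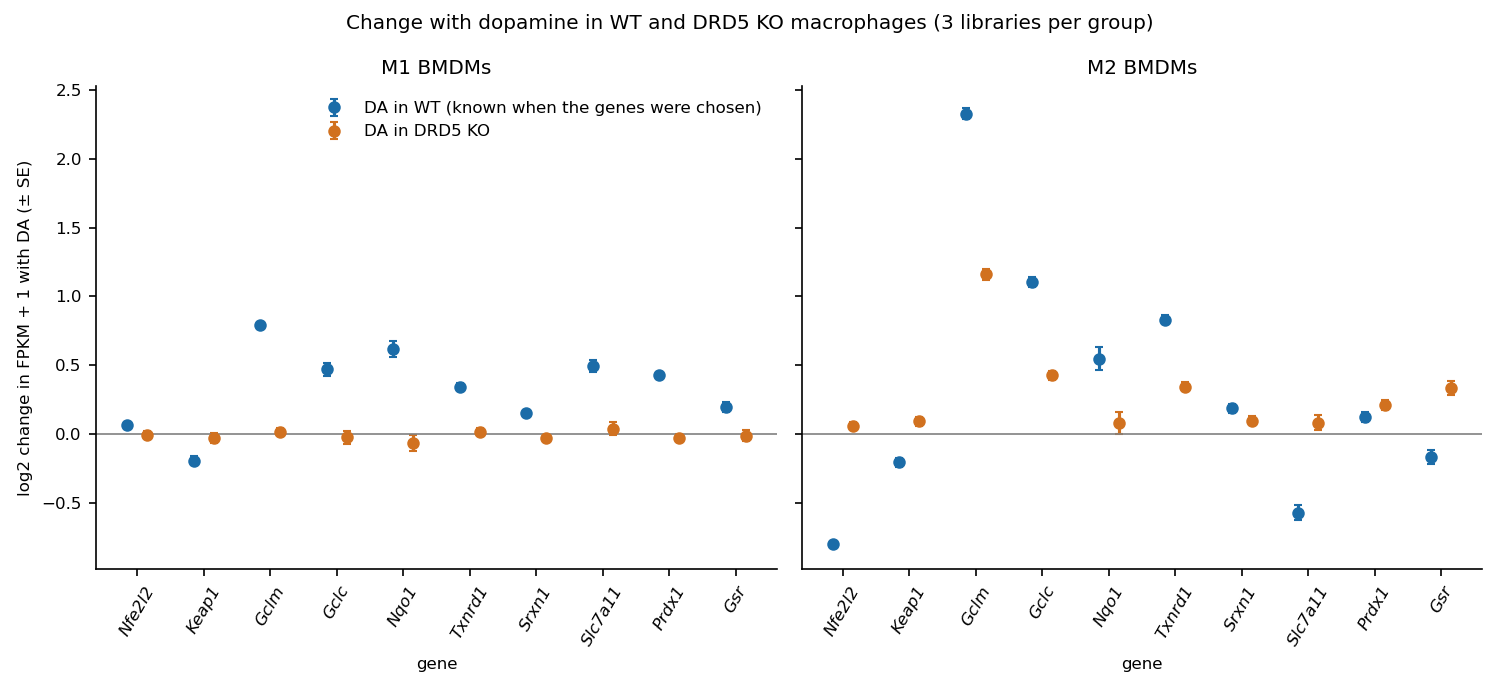
Change with DA in log2(FPKM + 1) for each of the 10 genes, in WT and in DRD5 KO cells, for M1 and M2, with bars of 1 SE and 3 libraries per group. In M1 the DRD5 KO points lie between −0.07 and 0.04, and in M2 *Gclm* is at 1.16, beside 2.33 in WT.

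The difference between the DA effects, WT minus DRD5 KO, contains the contrast on which the genes were selected and is therefore also a description. In M1 it was past the threshold for 6 of the 10, all with the higher effect in WT, beside 8.38% of all tested genes (3.20% higher and 5.18% lower). Of all those genes 38.2% had the higher effect in WT as deposited, 63.9% with median-of-ratios scaling and 56.5% with quantile normalization. The largest was *Gclm* at 0.77 (SE 0.0372) and the smallest of the 6 *Txnrd1* at 0.33 (SE 0.0363), with *Nqo1* at 0.69 (SE 0.0813), *Gclc* at 0.49 (SE 0.0668), *Slc7a11* at 0.46 (SE 0.0641) and *Prdx1* at 0.45 (SE 0.0392) between them.
In M2 the difference was past the threshold for 7 of the 10, 3 higher and 4 lower in WT, beside 43.2% of all tested genes (22.8% higher and 20.4% lower). The 3 higher ones were *Gclm* at 1.17 (SE 0.0583), *Gclc* at 0.68 (SE 0.0501) and *Txnrd1* at 0.49 (SE 0.0472), which were also past the threshold in M2 DRD5 KO cells. The 4 lower ones were *Nfe2l2* at −0.86 (SE 0.0319), *Slc7a11* at −0.66 (SE 0.0785), *Gsr* at −0.50 (SE 0.0715) and *Keap1* at −0.30 (SE 0.0461). *Nqo1* differed by 0.47 (SE 0.114) and reached the threshold when the adjusted p was only required to be below 0.05, and also without DA-treated M2 WT replicate 3, where its difference was 0.54. The difference of *Srxn1* was 0.09 (SE 0.0447) and that of *Prdx1* −0.09 (SE 0.051), the latter −0.22 with quantile normalization, and neither was past the threshold in any of the 19 alternatives.

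Loss of the receptor without DA was read from untreated DRD5 KO against untreated WT libraries. These WT libraries also served the contrast on which the genes were selected. In M1, limma placed 0 of the 10 past the threshold, beside 0.936% of all tested genes, 0.727% higher and 0.209% lower. At an unadjusted p under 0.05 there were 3 of the 10, beside 2557 of all tested genes (25.5%). The largest change was that of *Prdx1*, whose mean dropped by 16.1% in DRD5 KO cells, a change of −0.25 on the log2 scale (SE 0.0277, limma adjusted p = 7.78e-05), with each DRD5 KO library below each WT library and just short of 1.2-fold. It passed with quantile normalization (−0.29) and without untreated M1 WT replicate 2 (−0.27), with an adjusted p between 4.05e-06 and 0.00368 over all 20 alternatives. The groups did not overlap for 5 of the 10, beside 30.9% of all tested genes, with *Gclm*, *Txnrd1*, *Slc7a11* and *Prdx1* lower and *Srxn1* higher in DRD5 KO cells. In the same comparison the neutrophil list, led by *Csf3r*, summed to between 117 and 129 in WT and between 90.8 and 96.4 in DRD5 KO libraries, although *Csf3r* itself went the other way, from a mean of 69.4 to 78.3, and the other 9 genes together were at between 45.6 and 57.8 in WT and between 14.7 and 18.2 in DRD5 KO libraries, with 1 of the 10 genes, *Elane*, at 0 in all 12. The erythroid list was low throughout, and lower in DRD5 KO libraries, at between 1.43 and 2.59 in WT and between 0.07 and 0.47 in DRD5 KO. The part of both lists in the result was not tested.
In M2, 1 of the 10 was past the threshold, beside 5.51% of all tested genes, 1.37% higher and 4.15% lower. This was *Nqo1*, whose mean FPKM was 2.31 ± 0.0929 (SD, 3 libraries) in untreated WT and 0.963 ± 0.127 in untreated DRD5 KO cells, so that the mean dropped by 58.4%. *Nqo1* fell by 0.76 (SE 0.0805, limma adjusted p = 1.05e-05), stayed past the threshold in all 20 alternatives, and at a pseudocount of 0.1 the change was −1.19. Its level is among the lowest of the 10. The groups did not overlap for 7 of the 10, beside 39.5% of all tested genes: besides *Nqo1*, *Nfe2l2*, *Keap1* and *Srxn1* were lower and *Slc7a11*, *Prdx1* and *Gsr* higher in DRD5 KO cells. Their changes ran from −0.10 (*Nfe2l2*, limma adjusted p = 0.00431) to 0.15 (*Slc7a11*, limma adjusted p = 0.0615). Of all genes past the threshold in this contrast, 24.8% were higher as deposited, 40.1% with median-of-ratios scaling and 35.7% with quantile normalization. The fibroblast or stromal list was lower in the same libraries, between 85.9 and 87.6 in DRD5 KO against between 135 and 138 in WT (*Dcn* 42.5 and 75.1), as was the neutrophil list, between 58.8 and 61.6 against between 64.7 and 65.6. Higher in DRD5 KO were the mast cell or basophil list, between 3.69 and 4.0 against between 3.07 and 3.22, and the macrophage list. In the mast cell or basophil list only *Kit* was higher (3.47 and 2.72), as the other genes summed to 0.23 to 0.4 in DRD5 KO and 0.3 to 0.53 in WT. The macrophage list was between 12600 and 12700 in DRD5 KO against between 12400 and 12500 in WT. The part of these lists in the result was not tested.

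**Figure D3:**
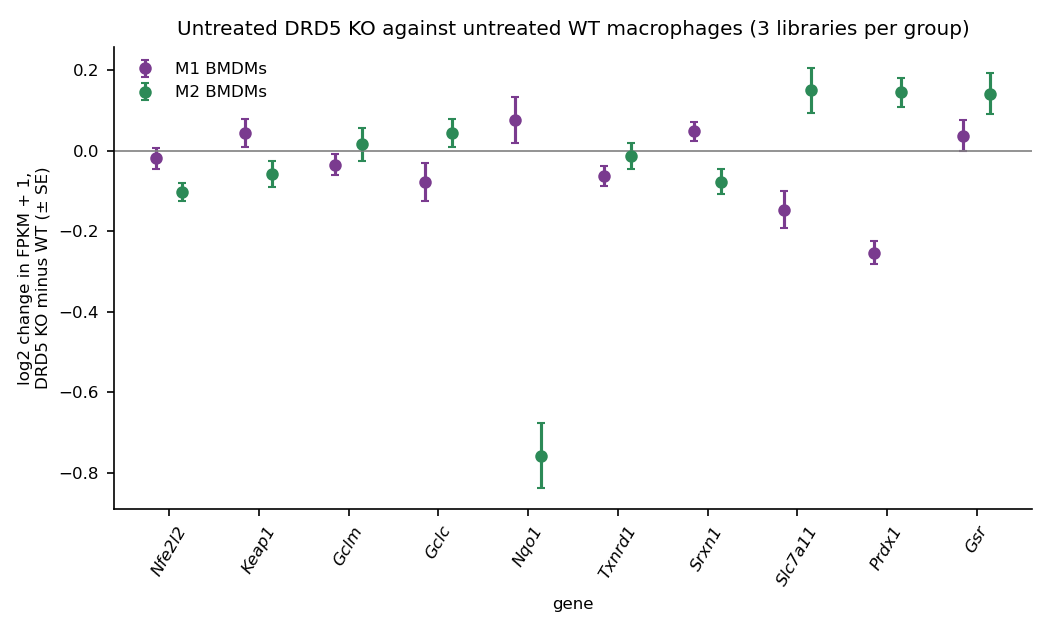
Change in log2(FPKM + 1) between untreated DRD5 KO and untreated WT cells for each of the 10 genes, for M1 and M2, with bars of 1 SE and 3 libraries per group. *Nqo1* in M2 lies at −0.76 and the other 19 points between −0.25 and 0.15.

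The levels of the 10 genes spanned a wide range within a group. In untreated M1 WT cells the order of mean FPKM was *Prdx1* (4580), *Srxn1* (142), *Nfe2l2* (96.4), *Gclm* (93.7), *Txnrd1* (84.2), *Gsr* (53.7), *Keap1* (33.6), *Gclc* (11.3), *Slc7a11* (10.6) and *Nqo1* (6.92). Libraries of neighbours in that order overlapped for *Nfe2l2* and *Gclm* and for *Gclc* and *Slc7a11*, and were apart for the rest. With DA, *Gclm* (163 ± 2.56) passed both *Srxn1* (158 ± 1.91) and *Nfe2l2* (101 ± 0.27) in M1 WT cells (SD, 3 libraries each), while *Gclc* and *Slc7a11* still overlapped. In untreated M2 WT cells the order was *Prdx1* (529), *Nfe2l2* (164), *Txnrd1* (38.1), *Srxn1* (34.9), *Keap1* (20.3), *Gsr* (14.5), *Gclc* (11.8), *Gclm* (10.2), *Slc7a11* (3.70) and *Nqo1* (2.31), with no neighbours overlapping. *Gclm* moved there from rank 8 without DA to rank 4 with DA in WT cells. In DA-treated M2 DRD5 KO cells the only neighbours that overlapped were *Keap1* and *Gsr*, and in DA-treated M1 DRD5 KO cells *Nfe2l2* and *Gclm*.
M1 and M2 libraries list different sets of genes and were fitted separately, so their levels are set side by side and were not tested. *Prdx1*, *Srxn1*, *Gclm*, *Gsr*, *Txnrd1*, *Keap1*, *Slc7a11* and *Nqo1* had higher mean FPKM in untreated M1 than in untreated M2 WT cells. *Nfe2l2* was the reverse, at 96.4 and 164 FPKM, and *Gclc* was near level, at 11.3 and 11.8. With DA, M2 WT cells had 93.8 FPKM of *Nfe2l2*, near the level of untreated M1 cells.

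To find genes of like pattern, log2(FPKM + 1) of the 8 members other than *Nfe2l2* and *Keap1* was scaled per gene and averaged over the 12 libraries of a stimulus, and every other tested gene was correlated with that average. The correlations are descriptions, since the 12 points fall into 4 groups. In M1 the 5 most alike genes were *Mat2a* (r = 0.997), *Ptafr* (0.996), *Bst1* (0.996), *Slc28a2* (0.994) and *Clec4n* (0.993). *Mat2a*, which makes S-adenosylmethionine, had a mean of 10.9 FPKM in untreated and 19.9 in DA-treated WT cells, and of 10.8 and 10.5 in DRD5 KO cells. The members themselves ran from 0.906 (*Gsr*) to 0.99 (*Gclm*) there, with *Nfe2l2* at 0.862 and *Keap1* at −0.909. In M2 the most alike was *Hmox1* (r = 0.981), and *Ikbkg* (0.9749), *Slc48a1* (0.973) and *Dpp8* (0.972) were also among the 5 most alike. The 8 members agreed less with their average in M2, from *Gclm* (0.928), *Txnrd1* (0.896) and *Gclc* (0.894) through *Srxn1* (0.775), *Prdx1* (0.599), *Nqo1* (0.372) and *Gsr* (0.110) to *Slc7a11* (−0.454), with *Keap1* at −0.355 and *Nfe2l2* at −0.626 outside it.

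Other genes of the pathway were read from 9 lists, as counts past the threshold and medians without a list test. Their counts stand against 14.3% of all tested genes in M1 WT, 46.3% in M2 WT and 4.02% in M2 DRD5 KO cells. Among 14 tested NRF2 regulators, 2 were higher with DA in M1 WT cells, *Trim16* (0.58, SE 0.0723) and *Bach1* (0.35, SE 0.0409), and 3 were higher and 3 lower in M2 WT cells. *Bach1*, which encodes a repressor that competes with NRF2 for the same elements, had a change of −0.71 (SE 0.0342) in M2 WT and 0.24 (SE 0.0342, limma adjusted p = 0.000203) in M2 DRD5 KO cells, the latter under 1.2-fold. *Trim16* had −0.55 (SE 0.0687) in M2 WT cells. *Sqstm1*, whose product p62 binds KEAP1, was the regulator past the threshold in M2 DRD5 KO cells, where it rose from 175 ± 6.25 to 219 ± 0.488 FPKM (SD, 3 libraries each), a change of 0.32 (SE 0.0255, limma adjusted p = 1.58e-06). The median of the list was −0.09 in M1 WT (−0.025 with median-of-ratios scaling and −0.028 with quantile normalization), 0.11 in M2 WT (0.05 with quantile normalization) and 0.06 in M2 DRD5 KO cells (0.025 with quantile normalization).
Of 31 tested genes of glutathione synthesis and use, 9 were higher and 5 lower with DA in M1 WT (3 lower with quantile normalization), and 11 higher and 10 lower in M2 WT cells. In M1 the largest were *Mgst2* (0.92, SE 0.128) and *Gsta3* (0.71, SE 0.088), both at means under 3 FPKM, and *Chac1* (−0.69, SE 0.126), whose product degrades glutathione and whose call was lost in 8 of 20 alternatives, among them the removal of any 1 of the untreated M1 WT libraries or of DA-treated M1 WT replicate 2 or 3 (changes over all 20 from −1.43 to −0.57). *Chac1* went the other way in M2 WT cells, from 0.893 ± 0.214 to 9.29 ± 0.92 FPKM (SD, 3 libraries each), a change of 2.44 (SE 0.0976). *Gpx3* (−1.08, SE 0.0325) and *Mgst1* (−1.01, SE 0.0401) had the next largest changes there. In M2 DRD5 KO cells 2 were past the threshold: *Abcc1*, which exports glutathione conjugates, rose by 0.48 (SE 0.0325, limma adjusted p = 4.93e-07), and *Gstm1* rose by 0.30 (SE 0.0321, limma adjusted p = 2.07e-05). *Abcc1* had 0.96 (SE 0.0325) in M2 WT cells, and *Gstm1* had −0.69 (SE 0.0321). The list's median was 0.02 in M1 WT (0.095 with median-of-ratios scaling and 0.05 with quantile normalization), −0.06 in M2 WT (−0.08 and −0.09) and −0.04 in M2 DRD5 KO cells (−0.065 and −0.077).
The thioredoxin and peroxiredoxin list had 2 higher and 5 lower of 18 tested genes in M1 WT (3 lower with either other scaling), 8 higher and 2 lower of 19 in M2 WT, and 0 of 19 past the threshold in M2 DRD5 KO cells by limma. *Txnip*, whose product binds thioredoxin, had 0.94 (SE 0.0247) in M1 WT and 0.39 (SE 0.0261) in M2 WT cells. *Prdx6* had 0.64 (SE 0.0392) and 0.49 (SE 0.0388). *Sesn2* had −0.56 (SE 0.0499) in M1 WT and 0.78 (SE 0.0841) in M2 WT cells. *Prdx3*, which encodes a mitochondrial peroxiredoxin, had −0.375 (SE 0.0592) in M1 WT and 0.69 (SE 0.0485) in M2 WT cells. Its M1 call was lost without untreated M1 WT replicate 2 (−0.346, limma adjusted p = 0.00104). *Sesn1* had −0.98 (SE 0.0307) in M2 WT cells. In the quinone and carbonyl list 3 of 22 tested genes were higher in M1 WT cells: *Akr1b8* (1.19, SE 0.0553), *Ptgr1* (1.01, SE 0.0429) and *Osgin1* (0.41, SE 0.0458). In M2 WT cells 4 of 20 were higher and 8 lower (2 and 9 with quantile normalization), with *Ephx1* at −1.68 (SE 0.0279), *Abhd4* at −0.77 (SE 0.0451) and *Cbr3* at −0.76 (SE 0.0781). *Ugt1a7c* was past the threshold in M2 DRD5 KO cells, where it rose by 0.37 (SE 0.0398, limma adjusted p = 2.23e-05), beside 0.37 (SE 0.0398) in M2 WT cells.
Glutathione and thioredoxin are kept reduced with NADPH. Of the genes that supply it, 3 were higher and 2 lower of 16 tested in M1 WT, and 11 higher and 3 lower of 18 in M2 WT cells. *Mthfd2* (2.39, SE 0.0495) and *Idh2* (1.11, SE 0.0483), both mitochondrial, were higher in M2 WT cells, and cytosolic *Idh1* was lower (−1.44, SE 0.025). *G6pdx*, the entry enzyme of the pentose phosphate pathway, had −0.19 (SE 0.0282) in M2 WT cells but rose from 109 ± 3.5 to 145 ± 2.75 FPKM (SD, 3 libraries each) in M2 DRD5 KO cells, a change of 0.41 (SE 0.0282, limma adjusted p = 4.93e-07). *Me1* rose by 0.47 (SE 0.06, limma adjusted p = 8.22e-05) in M2 DRD5 KO cells, where 2 of the list were past the threshold as deposited and 4 with quantile normalization. The median was 0.32 in M2 WT and 0.04 in M2 DRD5 KO cells (0.02 with median-of-ratios scaling).
Of 6 genes that remove superoxide and peroxide, *Cat*, which encodes catalase, was higher in M1 WT cells (0.74, SE 0.0323) and *Park7* lower (−0.28, SE 0.0531), the latter a call lost in 10 of 20 alternatives, among them both other scalings and the removal of M1 WT replicate 2 or 3 or of DA-treated M1 WT replicate 2 or 3 (changes from −0.34 to −0.21, highest adjusted p 0.00539). In M2 WT cells *Sod1* (0.34, SE 0.0351) and *Park7* (0.33, SE 0.047) were higher, and *Cat* had −0.12 (SE 0.0244). In M2 DRD5 KO cells *Cat* rose from 108 ± 2.5 to 156 ± 2.17 FPKM (SD, 3 libraries each), a change of 0.53 (SE 0.0244, limma adjusted p = 1.12e-08). Of the NADPH oxidase list, 2 of 9 tested genes were lower in M1 WT cells, *Rac2* (−0.45, SE 0.0282) and *Nox1* (−0.48, SE 0.0776). The call of *Nox1* was lost in 3 of 20 alternatives: quantile normalization (−0.37), the removal of M1 WT replicate 3 (−0.46) and that of DA-treated M1 WT replicate 2 (−0.45), and its change ran from −0.93 to −0.37. In M2 WT cells 1 of 8 was higher, *Ncf4* (0.77, SE 0.0375), and 3 were lower, among them *Cybb* (−1.38, SE 0.0286) and *Cyba* (−0.44, SE 0.0239). None of the 8 was past the threshold in M2 DRD5 KO cells by limma, and *Cybb* was past it with quantile normalization (0.29).
Among the 9 heme and iron targets of NRF2, 3 were higher with DA in M2 WT and the same 3 in M2 DRD5 KO cells, where *Hmox1* rose by 3.03 (SE 0.02, limma adjusted p = 3.49e-19), *Slc40a1* by 1.59 (SE 0.0658, limma adjusted p = 4.37e-09) and *Slc48a1* by 0.90 (SE 0.0225, limma adjusted p = 1.12e-11), and 4 of the 9 were higher in M1 WT cells.
The ATF4 amino acid response shares *Slc7a11* with NRF2, and its list is set side by side for the 2 stimuli, with no test between them: 1 higher and 5 lower of 20 in M1 WT, 13 higher and 3 lower of 19 in M2 WT cells. *Psat1* had −0.88 (SE 0.0267) in M1 WT and 1.99 (SE 0.0475) in M2 WT cells, and *Asns* −0.50 (SE 0.0579) and 2.94 (SE 0.0554). *Slc7a5* (3.02, SE 0.0696) and *Phgdh* (2.49, SE 0.0574) were also higher in M2 WT cells, where *Slc7a11* was lower. In M2 DRD5 KO cells 1 of the 19 was past the threshold, *Phgdh*, at −0.32 (SE 0.0574, limma adjusted p = 0.000992), a call that was lost in 15 of 20 alternatives, including the removal of any 1 of the 6 M2 DRD5 KO libraries, with an adjusted p of up to 0.00576. The median was −0.17 in M1 WT (−0.11 with median-of-ratios scaling), 0.68 in M2 WT and 0.02 in M2 DRD5 KO cells, the last turning to −0.01 with median-of-ratios scaling.
In M1 DRD5 KO cells, limma placed 0 of the tested genes of any of the 9 lists past the threshold with DA. For the lists that gained calls in M2 DRD5 KO cells, the genes *Sqstm1*, *Abcc1*, *Gstm1*, *Ugt1a7c*, *G6pdx*, *Me1*, *Cat*, *Hmox1*, *Slc40a1* and *Slc48a1* had each DA-treated library above each untreated one and were past the threshold in all 20 alternatives.

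**Figure D4:**
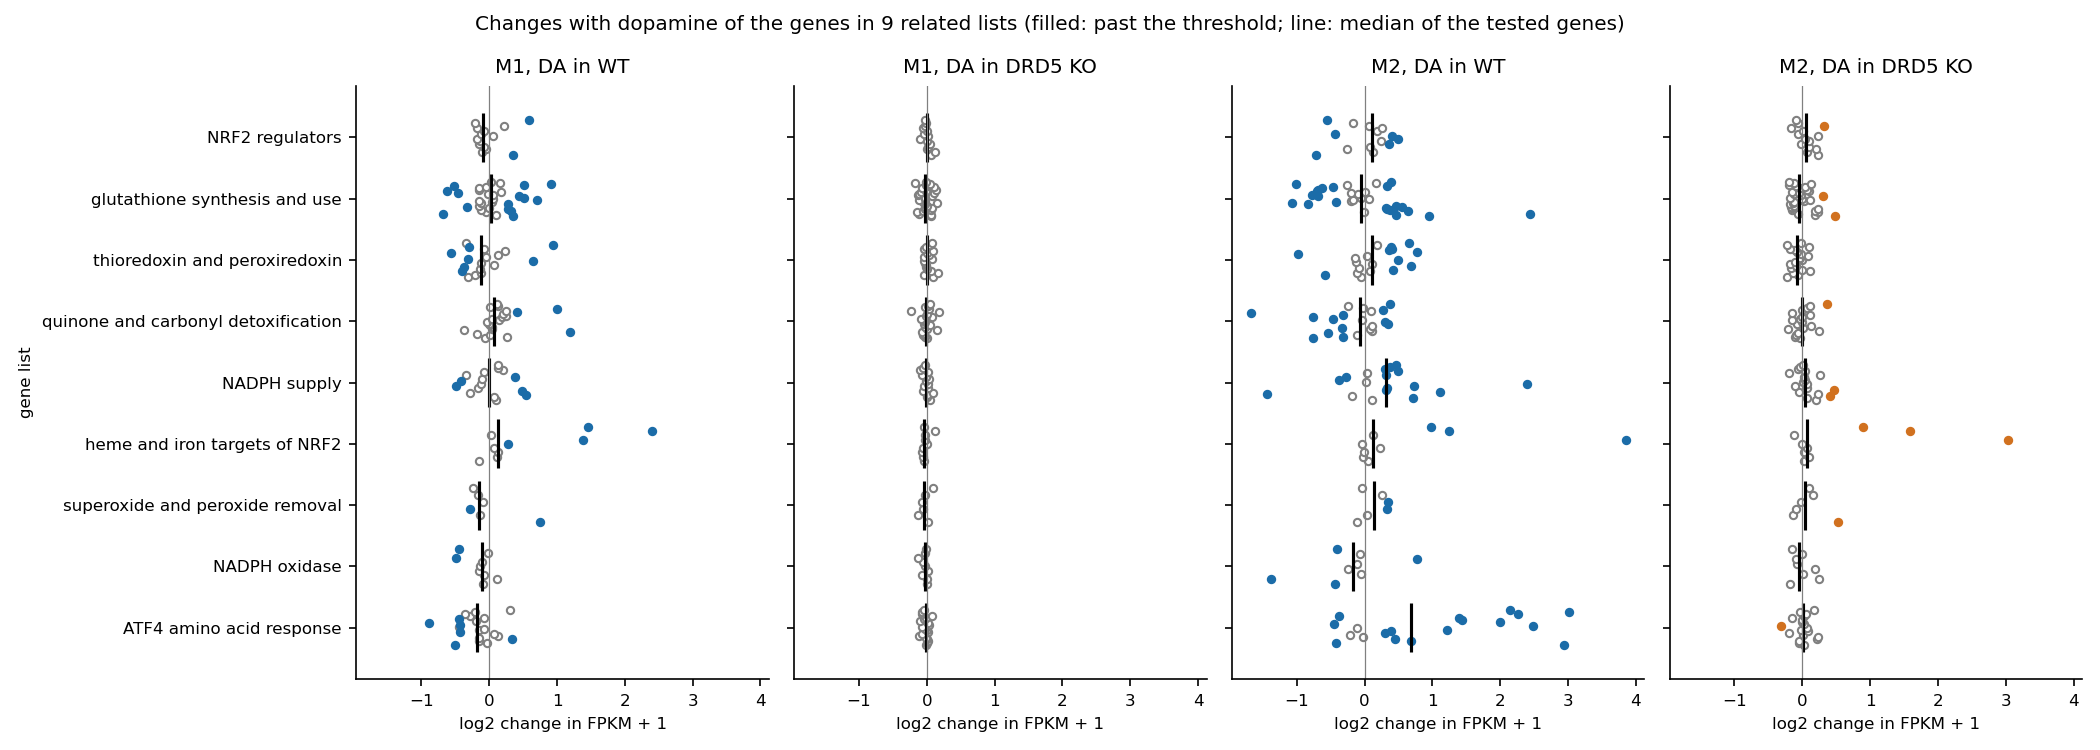
Change with DA of each tested gene in the 9 lists, in WT (blue) and DRD5 KO (orange) cells with 3 libraries per group, filled when past the threshold and with a line at the median. In M1 the DRD5 KO points gather around 0, and in M2 the filled DRD5 KO points are mostly on the higher side.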

How the data were processed

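Per the labels, total RNA of 24 BMDM libraries was sequenced on BGISEQ-500, and the authors mapped reads with HISAT2 (another note of the series names Bowtie2). FPKM were deposited with 2 decimals, in 1 file per library. Each stimulus was fitted separately as 4 group means with limma 3.58.1 (R 4.3.3, intensity trend) on log2(FPKM + 1), for genes that reached an FPKM of 1 in 3 or more of the 12 libraries. Summaries used Python 3.11.15, numpy 2.4.6, pandas 2.3.3, scipy 1.17.1 and matplotlib 3.10.9, and the fit was tested on simulated data. The members and lists were chosen with earlier results of these data known. Besides the 10 members, the text names, per list, up to 3 genes with the largest change with DA in WT in M1 and in M2 and up to 2 with DA in DRD5 KO in M2, the 5 genes most alike in each stimulus, and the most abundant marker of each list, except where a result is not reported here. Alternatives were a pseudocount of 0.1, quantile normalization, no filter, a block on replicate number, median-of-ratios scaling, a cutoff of 0.05 on the adjusted p, no intensity trend, the 2 compared groups alone, and each library left out.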

Additional observations from a re-analysis of the deposited data

Results flagged for a closer look

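For the following genes the effect of DA in WT minus that in DRD5 KO cells was past the threshold. The genes were selected on the WT part of that difference, so this is a description and not a test of it. In M1 the effect in WT was higher for *Gclm* (0.77), *Gclc* (0.49), *Nqo1* (0.69), *Txnrd1* (0.33), *Slc7a11* (0.46) and *Prdx1* (0.45). In M2 it was higher for *Gclm* (1.17), *Gclc* (0.68) and *Txnrd1* (0.49), and lower for *Nfe2l2* (−0.86), *Keap1* (−0.30), *Slc7a11* (−0.66) and *Gsr* (−0.50).
For some genes the libraries of the 2 compared groups did not overlap in either stimulus, and the direction was opposite in M1 and M2, and the difference between M1 and M2 was not tested. With DA in WT these were *Nfe2l2* (0.063 in M1 and −0.80 in M2), *Slc7a11* (0.49 and −0.57) and *Gsr* (0.20 and −0.17). With DA in DRD5 KO it was *Prdx1* (−0.026 and 0.21). Between untreated DRD5 KO and untreated WT cells these were *Srxn1* (0.048 and −0.077), *Slc7a11* (−0.15 and 0.15) and *Prdx1* (−0.25 and 0.14). None of these genotype changes was past the threshold as deposited. In either direction, 56.5% of all tested genes in M1 and 76% in M2 did not overlap with DA in WT. The shares were 8.73% and 45.3% with DA in DRD5 KO, and 30.9% and 39.5% between the untreated genotypes. The share with opposite directions is not given here, so nothing is concluded from these genes.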

How the results depend on the processing

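The number of the 10 genes past the threshold stayed within 1.5 times its value in all alternatives for 7 of the 8 contrasts. The exception was untreated DRD5 KO against untreated WT in M1: 0 as deposited, 1 with quantile normalization (*Prdx1*), and 0 to 1 when each library was left out in turn. The cause was not tested. Over all single changes of the 10 genes and their alternatives, 1568 of 1580 kept their side of the threshold (1559 also their direction), 5 lost the threshold, 7 gained it and 0 were reversed, while 9 of the 1568 were changes not past the threshold that changed sign. The naming rule took 49 genes from the lists, not all of which are named in the text. Over their changes and alternatives, 3736 of 3800 kept their side of the threshold (3655 also their direction). A further 52 lost the threshold, 12 gained it and 0 were reversed. Of the 3736, 81 were changes not past the threshold that changed sign.
Replicates share only a number as far as the labels say: after removal of group means, libraries with the same number had a mean correlation of −0.02 in both stimuli, and 1 of 12 libraries in M1 and 4 of 12 in M2 correlated best with their own number. With a replicate block the counts past the threshold were 6, 0, 0 and 6 in M1 and 6, 4, 1 and 7 in M2 (DA in WT, DA in DRD5 KO, untreated genotype, difference), as without it.
The depth of the libraries is not in the files. From the steps between low FPKM values of 70 genes in M1 and 82 in M2, the step relative to the other libraries was 1.0 in each library except M2 WT replicate 2, at 1.155, which says nothing of absolute depth. Leaving out 1 library leaves 2 in its group, assumed to vary like the others.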
